A study of Mus musculus with 45 samples.

Results

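The 10 genes described here are known for their expression in the choroid plexus: Ttr, Kl, Folr1, Clic6, Otx2, Aqp1, Kcne2, Slc4a5, Sostdc1 and Enpp2. They were chosen by gene symbol, and all 10 were found among the 36172 genes of the cortex, hippocampus and retina count tables. RNA was sequenced from 3-month-old male and female mice, treated with tamoxifen or with sunflower oil alone as vehicle. This drug binds the oestrogen receptor and serves in mice to activate inducible Cre recombinase, and the study asked whether it leaves lasting changes in the nervous system. The labels give no strain, no genotype and no dose.

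The cortex contributed 14 libraries, from 4 females and 3 males given tamoxifen and from 3 females and 4 males given vehicle. The hippocampus contributed 14 libraries, from 4 females and 4 males given tamoxifen and from 3 females and 3 males given vehicle. The retina contributed 15 libraries, from 4 females and 4 males given tamoxifen and from 3 females and 4 males given vehicle. Within a tissue each library came from a separate animal, and most animals gave a library in each of the 3 tissues, under 1 animal number. Total counts ran from 10259768 to 22375163 in cortex, from 31154309 to 44153244 in hippocampus and from 9143811 to 18253874 in retina. Levels are given in CPM, the counts of a gene scaled to a library total of 1000000, whereas tests used library sizes scaled by edgeR.

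The choroid plexus is a folded epithelium that lies in the ventricles, next to the hippocampus and other brain tissue, and makes cerebrospinal fluid. Its cells secrete transthyretin, carry folate and ions into the fluid and express the homeobox factor Otx2. The retina holds an epithelium with a related role, the retinal pigment epithelium, which lies behind the photoreceptors and also makes transthyretin. Otx2 is in addition a regulator of photoreceptors, bipolar cells and pigment epithelium, so several of these genes have sources of their own in the eye. Enpp2, which encodes autotaxin, is also expressed by oligodendrocytes, the myelinating cells of the brain.

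In the brain tissues, 5 of 28 libraries carried all 10 genes far above the remaining libraries of their tissue. They were the cortex libraries of female vehicle animal 958 and male tamoxifen animal 960, and the hippocampus libraries of female tamoxifen animal 951, of female vehicle animal 958 and male tamoxifen animal 962. These libraries were picked by their Ttr level after it was seen, so what follows on them is a description. Animal 958 was high in both brain regions, whereas animal 951 had 41.2 CPM of Ttr in cortex and animal 960 had 37.5 CPM in hippocampus.

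Ttr encodes transthyretin, the carrier of thyroxine and vitamin A that the choroid plexus secretes. In cortex, females given tamoxifen (animals 951, 952, 953 and 954) had 41.2, 32.9, 22.3 and 28.3 CPM, and females given vehicle (955, 957 and 958) had 36.4, 60.6 and 1127 CPM. Males given tamoxifen (959, 960 and 961) had 19.5, 2702 and 37.8 CPM, and males given vehicle (963, 964, 965 and 966) had 100.1, 29.0, 294.6 and 90.0 CPM. The treatment groups overlapped in both sexes, and 1 library set the mean of female vehicle (408.1 ± 622.9 CPM, SD, n = 3) and of male tamoxifen (919.7 ± 1543 CPM, SD, n = 3).

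In hippocampus, Ttr stood at 1900, 78.3, 99.8 and 71.6 CPM in females given tamoxifen (951, 952, 953 and 954) and at 55.2, 34.0 and 2092 CPM in females given vehicle (955, 957 and 958). Males given tamoxifen (959, 960, 961 and 962) had 125.6, 37.5, 43.1 and 1023 CPM, and males given vehicle (963, 964 and 966) had 96.5, 57.5 and 27.6 CPM. No library lay between 125.6 and 1023 CPM, an 8.15-fold gap. In cortex the widest gap was 3.83-fold, from 294.6 to 1127 CPM, so male vehicle animal 965 stood between the low and the high libraries.

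**Figure D1:**
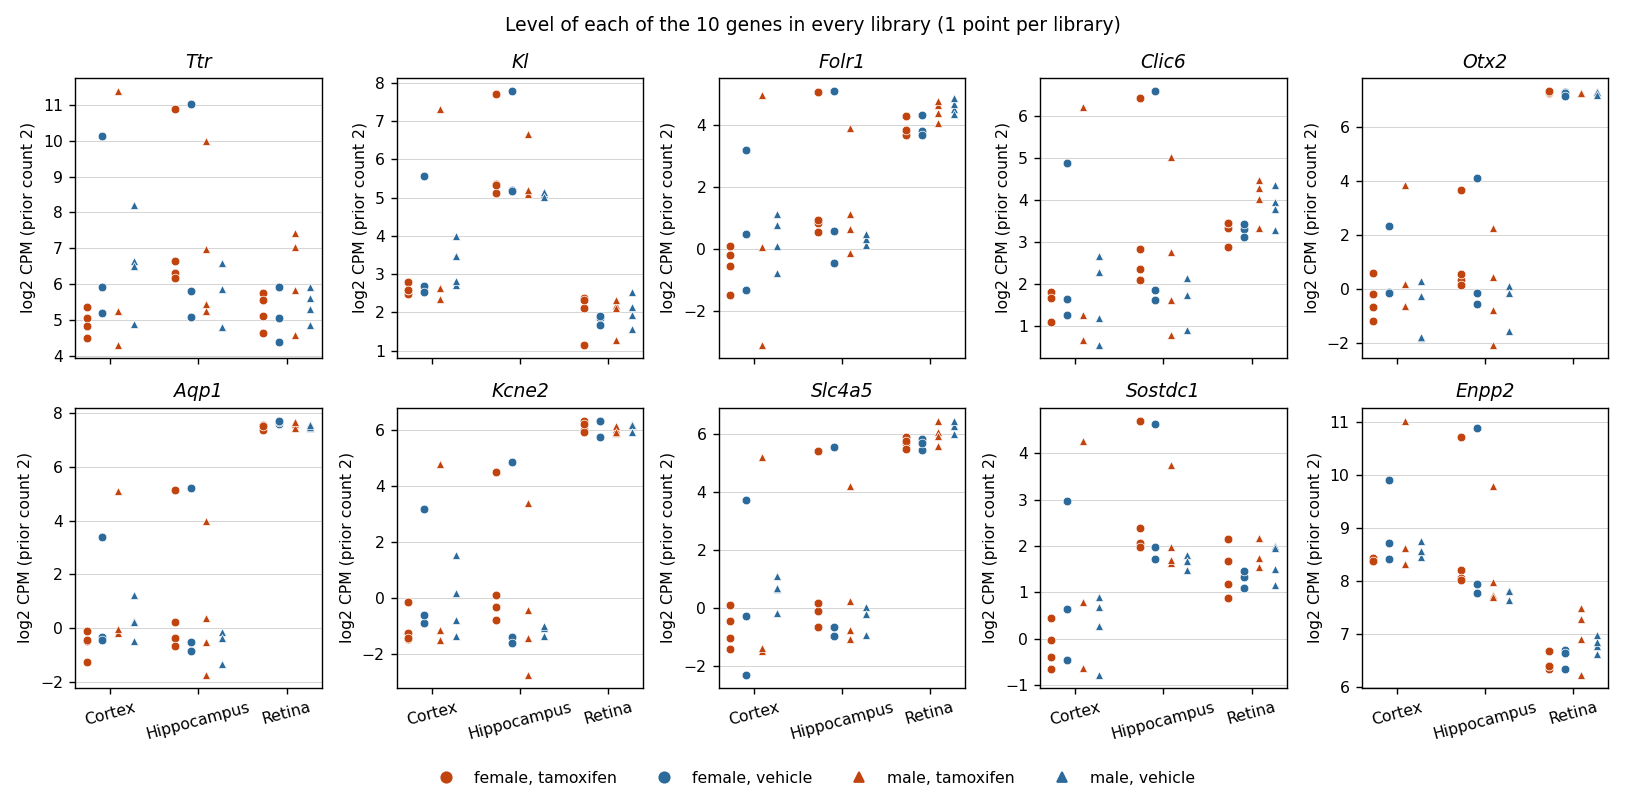
Level of each of the 10 genes in every library as log2 CPM (prior count 2), by tissue, with colour for treatment and symbol for sex. In cortex 2 libraries and in hippocampus 3 libraries lie above the rest for every gene, while in retina Otx2, Aqp1 and Kcne2 form tight clusters above all brain libraries.

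Kl encodes klotho, a co-receptor for FGF23. Its level in hippocampus was steady outside the 3 high libraries, at 32.7 to 40.6 CPM over 11 libraries (coefficient of variation 7.04%), and reached 207.7 CPM in animal 951, 222.6 CPM in animal 958 and 101.8 CPM in animal 962. In cortex it was 4.92 to 16.0 CPM over 12 libraries, with 47.2 CPM in animal 958 and 158.5 CPM in animal 960. Enpp2 was likewise steady outside the high libraries, at 318.9 to 432.7 CPM in cortex (coefficient of variation 9.96%) and 199.8 to 296.4 CPM in hippocampus (12.2%). It rose to 957.9 and 2093 CPM in the high cortex libraries and to 1679, 1903 and 886.2 CPM in the high hippocampus libraries of 951, 958 and 962.

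The other 7 genes were scarce outside the high libraries. A count of 3 corresponded to between 0.134 and 0.292 CPM in cortex, depending on depth, and to between 0.0679 and 0.0963 CPM in hippocampus. Folr1, the folate receptor that moves folate into the cerebrospinal fluid, ranged from 0 to 2.08 CPM in the 12 lower cortex libraries and reached 8.95 and 31.1 CPM in animals 958 and 960. Aqp1, a water channel of the apical membrane, ranged from 0.278 to 2.28 CPM in those 12 and reached 10.4 and 34.6 CPM. Kcne2, a potassium channel subunit, ranged from 0.181 to 2.77 CPM in those 12 and reached 8.95 and 27.4 CPM. For Kcne2 the upper end of the lower libraries was animal 965, the library with the third highest Ttr.

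Slc4a5, a sodium bicarbonate cotransporter, ranged from 0.0667 to 2.03 CPM in the 12 lower cortex libraries against 13.1 and 37.1 CPM in animals 958 and 960. Otx2 ranged from 0.0975 to 1.39 CPM against 4.89 and 14.5 CPM. Clic6, an intracellular chloride channel protein, ranged from 1.27 to 6.22 CPM against 29.5 and 74.6 CPM. Sostdc1, a secreted inhibitor of BMP and WNT signals, ranged from 0.39 to 1.78 CPM against 7.64 and 19.2 CPM. In hippocampus the lower 11 libraries held at most 7.11 CPM of any of these 7 genes, and the high libraries at least 4.71 CPM of each.

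The 10 genes kept similar proportions in the 5 high libraries. Each gene's excess was taken as its CPM minus the median of the lower libraries of that tissue, and set against 1000 CPM of Ttr excess. Enpp2 added 558.3 CPM per 1000 of Ttr in cortex 958, 654.4 in cortex 960, 786.7 in hippocampus 951, 822.9 in hippocampus 958 and 680.7 in hippocampus 962. That range was 1.47-fold, while Ttr excess itself ran from about 966 CPM in hippocampus 962 to 2665 CPM in cortex 960. Kl varied most, from 37.6 to 93.6 CPM per 1000 of Ttr (2.49-fold), and Clic6 ran from 25.0 to 46.3. Otx2, the transcription factor of the set, added the least, 3.82 to 8.1 CPM per 1000 of Ttr. For 8 of the other 9 genes both cortex libraries lay below the 3 hippocampus libraries, Otx2 being the exception. In all, the 10 genes made up 0.222% and 0.519% of the counts in cortex 958 and 960, and 0.405%, 0.45% and 0.212% in hippocampus 951, 958 and 962.

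**Figure D2:**
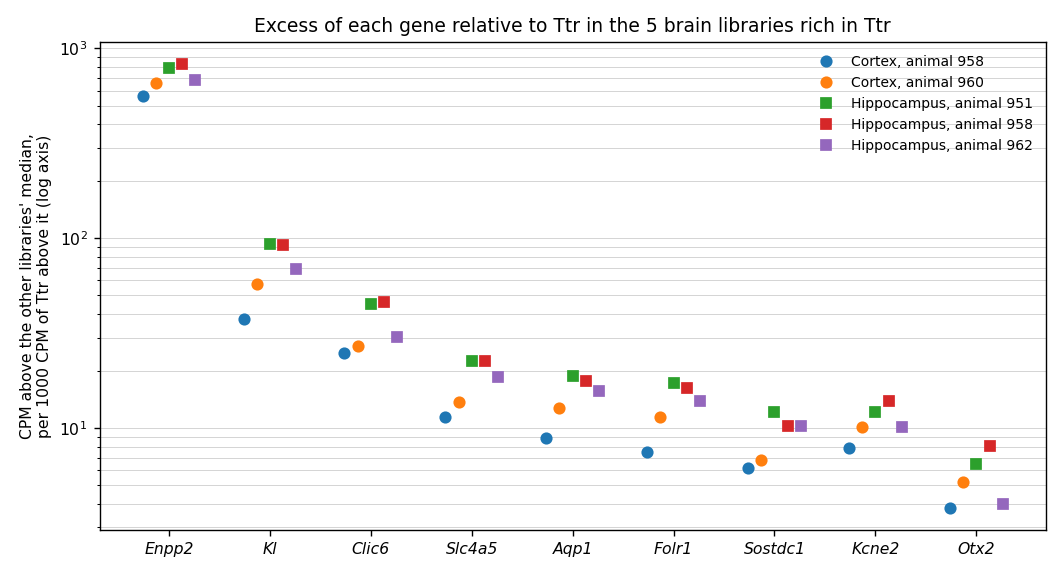
Excess of each gene over the median of the lower libraries of its tissue, per 1000 CPM of Ttr excess, on a log axis, with circles for the 2 cortex and squares for the 3 hippocampus libraries. In each library Enpp2 (558.3 to 822.9) is highest and Otx2 (3.82 to 8.1) lowest, while Folr1, Kcne2 and Sostdc1 change places between libraries. The cortex points mostly lie under the hippocampus points.

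Levels of different genes can be set side by side only per length, so CPM were divided by the summed exon length in kilobases (GENCODE M21). In cortex the order by median ran from Enpp2 (109.2 CPM per kb) and Ttr (33.3) down to Kcne2 (0.244) and Slc4a5 (0.122). In hippocampus it ran from Enpp2 (74.9 CPM per kb), Ttr (63.2) and Kl (7.11) down to Kcne2 (0.274) and Slc4a5 (0.153). Over all libraries, neighbours in both brain orders overlapped in range. In retina the order was Aqp1 (72.7 CPM per kb), Otx2 (51.4), Ttr (39.7), Kcne2 (39.6), Enpp2 (30.9), Folr1 (12.7), Slc4a5 (10.8), Clic6 (2.87), Sostdc1 (1.57) and Kl (0.803). In retina neighbours in this order overlapped in range except Aqp1 (63.6 to 81.1) and Otx2 (47.2 to 54.4), Enpp2 (at least 22.5) and Folr1 (at most 18.4), and Slc4a5 (at least 7.95) and Clic6 (at most 5.88). Ttr had the widest range, 17.5 to 145.9 CPM per kb.

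Co-variation was measured as Pearson's r and Spearman's rho of log2 CPM (prior count 2) between Ttr and each other gene, with permutation tests over libraries adjusted across 27 pairs. Libraries share depth and composition, so these are relations between libraries and not between cells. In cortex the 9 values of r over 14 libraries ran from 0.8 for Otx2 to 0.98 for Kcne2. Kcne2 had rho = 0.96 (permutation adjusted p = 0.00027) and kept r = 0.91 without animals 958 and 960. Kl kept r = 0.8 without those 2 libraries, Slc4a5 0.74, Sostdc1 0.71, Folr1 0.68, Enpp2 0.67 and Clic6 and Aqp1 0.61 each. The 12 libraries left still included animal 965, which had the highest Ttr among them (294.6 CPM). It also had the most Kcne2, Kl, Folr1 and Aqp1 of the 12, though not the most Clic6 or Otx2. Its part in these r was not tested, and Kcne2 fell as low as 2 counts. Otx2 fell to 0.13, so its relation in cortex rested on animals 958 and 960, and its rho of 0.45 did not pass (permutation adjusted p = 0.139). Aqp1 did not pass by rank either (rho = 0.5, permutation adjusted p = 0.11).

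In hippocampus the high libraries form a separate cluster, and r was computed within the 11 lower libraries. Clic6 (r = 0.91, rho = 0.93), Aqp1 (0.87, 0.92), Otx2 (0.85, 0.91) and Slc4a5 (0.85, 0.83) followed Ttr most closely there, with permutation adjusted p between 0.00045 and 0.00384 for r. Enpp2 (r = 0.74, permutation adjusted p = 0.0161) and Kcne2 (r = 0.69, permutation adjusted p = 0.0242) also passed. Folr1 (r = 0.55), Sostdc1 (0.54) and Kl (0.32) did not pass, with permutation adjusted p of 0.116, 0.116 and 0.375. Over all 45 pairs of the 10 genes, r was positive in 45 in cortex (median 0.91) and in 45 in the lower hippocampus libraries (median 0.65), but in only 25 in retina (median 0.06). The cortex values include its 2 high libraries, whereas the hippocampus values lack its 3, so these medians are not from like sets.

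**Figure D3:**
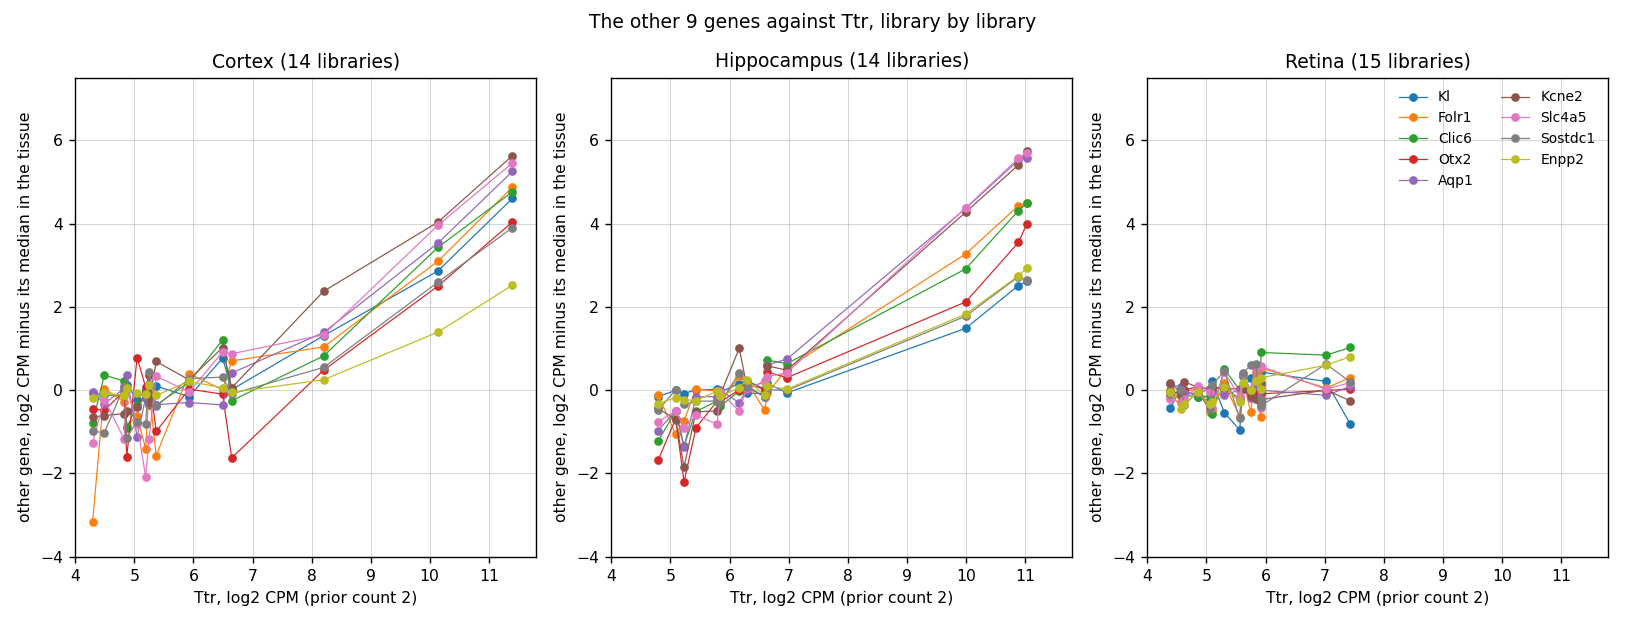
Log2 CPM of the other 9 genes, each minus its median in the tissue, against log2 CPM of Ttr, with 1 point per library and lines joining the libraries of a gene in order of Ttr. In cortex and hippocampus all 9 rise with Ttr at the high end. In retina Enpp2 (r = 0.87) and Clic6 (r = 0.72) rise most clearly, and the other genes had r from -0.37 to 0.38.

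Across brain regions of the same animal, each gene's cortex level was set against its hippocampus level in the 11 animals outside the high hippocampus cluster. That choice left out animal 958, high in both regions, and kept animal 960, high in cortex alone, which bears on the sign of r. Group means were not subtracted. Among these 11 animals all 10 values of r were negative, from -0.81 for Kcne2 to -0.3 for Slc4a5 and Sostdc1. Kcne2 alone passed by r among the 10 tests (rho = -0.85, permutation adjusted p = 0.0059 for r), and kept r = -0.79 without animals 960 and 966. Ttr had r = -0.48 and rho = -0.67 (permutation adjusted p = 0.198 and 0.0691), with r = -0.94 without animals 960 and 963. Folr1 (rho = -0.74) and Enpp2 (rho = -0.74) passed by rank only (permutation adjusted p = 0.0442 each). Kcne2 is at few counts in most of these libraries, from 2 counts in the lowest cortex and 3 in the lowest hippocampus library. Clic6, Aqp1, Otx2 and Slc4a5 passed neither by r nor by rank. Without the 2 libraries farthest from each gene's own median, r was 0.03 for Clic6, 0.28 for Aqp1, -0.11 for Otx2 and -0.1 for Slc4a5, so these r depended on those libraries.

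The genes most like Ttr outside the 10 were named by r of log2 CPM over all libraries of a tissue, as a description. In cortex they were F5 (0.97), Trpv4 (0.968), Cldn2 (0.963), Kcnj13 (0.933), Col8a1 (0.919), Sulf1 (0.913), Tmem72 (0.911), Trpm3 (0.902), Calml4 (0.898) and Prlr (0.894). In hippocampus they were F5 (0.983), Abca4 (0.978), Cldn2 (0.978), Pla2g5 (0.975), Wdr86 (0.973), Oca2 (0.971), Rbm47 (0.971), Col8a1 (0.967), Tmem72 (0.966) and Msx1 (0.964). F5 (coagulation factor V), Cldn2 (a tight junction protein), Col8a1 and Tmem72 were in both sets. Without the high libraries F5 still had r = 0.869 over 12 cortex libraries and 0.808 over 11 hippocampus libraries, and Prlr had 0.365 in cortex.

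A list of 25 other choroid plexus genes, itself drawn up with earlier results of these data known, was high in the same libraries. It held all 10 of the cortex genes most like Ttr named above, and 5 of the 10 hippocampus genes. The counts that follow thus partly repeat those genes and are a description. Both high cortex libraries lay above every other cortex library for 20 of the 25, and all 3 high hippocampus libraries above every other for 22 of the 25. That was true of 1.73% of all genes tested in cortex and 1.78% in hippocampus. The summed level of the list was 558.1 and 1224 CPM in the high cortex libraries against 281.7 to 408.1 CPM in the others, and 782.7 to 1619 CPM against 325.8 to 532.0 CPM in hippocampus. Among its most abundant genes, Igf2, a growth factor, had 118.0 and 220.4 CPM in the high cortex libraries against 59.2 to 125.3 CPM, and Trpm3, a cation channel, had 82.6 and 141.1 CPM against 38.3 to 49.4 CPM.

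Markers of other cells were counted in the same way. Of 11 ependymal genes, 1 in cortex and 1 in hippocampus had every high library on top, and the list's sum was 31.9 and 42.7 CPM against 16.4 to 28.3 CPM in cortex and 73.0 to 83.8 CPM against 41.5 to 86.5 CPM in hippocampus. The count was 0 in both brain regions for 12 oligodendrocyte, 10 meningeal fibroblast, 9 endothelial and 4 red cell genes. It was 0 of 8 striatal and 0 of 10 thalamic and habenular genes in cortex, and 1 of each in hippocampus. Of 15 pigment epithelium genes it was 2 in each region, and their sum was 48.7 and 78.5 CPM against 40.0 to 55.9 CPM in cortex and 57.3 to 82.3 CPM against 45.0 to 54.8 CPM in hippocampus. The ependymal sum in cortex and the pigment epithelium sum in hippocampus were thus also highest in the high libraries, without overlap, and their part in the levels of the 10 genes was not tested. Rod photoreceptor genes, at 0 of 8 here, summed to 10.7 to 78.9 CPM over the cortex libraries, with at most 13.4 CPM in the high ones, against at most 4.13 CPM in hippocampus. Rod transcripts in cortex bear on the genes abundant in retina, such as Otx2, and their part in the low cortex levels was not tested.

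The first question of the design is whether tamoxifen changed these genes. None of the 10 passed edgeR's quasi-likelihood test (adjusted p under 0.05) in any of 15 comparisons within tissues, of treatment, sex or their interaction. In these bulk tissues fewer cells of a type and less RNA per cell cannot be told apart. In cortex of females, where 0.375% of 14680 genes were called, all 10 fold changes were negative (median log2 fold change -2.35, range -3.72 to -0.77) and 5 had an unadjusted p under 0.05. In cortex of males, where 0.0272% were called, all 10 were positive (median 2.9, range 1.28 to 3.27) and 10 had an unadjusted p under 0.05. The median of all genes was 0.01 in females and 0 in males, and 8.5% and 6.82% of them had an unadjusted p under 0.05. Rod photoreceptor genes lay the opposite way, with 6 of 6 tested positive in females (median 1.74, 5 at an unadjusted p under 0.05) and 0 of 6 positive in males (median -1.42, 4 at an unadjusted p under 0.05), and 0 called. Their part in the values of the 10 genes was not tested. DESeq2 gave 1 of the 10 an adjusted p in females and 3 in males, and called 0 in each.

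Both cortex medians were set by a single library. Without animal 958 the female median was -0.19, and without animal 960 the male median was -0.95. Ttr itself had a log2 fold change of -3.72 ± 1.25 (SE, 4 against 3 libraries, edgeR adjusted p = 0.358) in females and 2.82 ± 1.15 (SE, 3 against 4 libraries, edgeR adjusted p = 0.631) in males. Without animal 960, a male, Ttr was called in females at the same fold change with a smaller error (-3.72 ± 0.82, SE, edgeR adjusted p = 0.0475). With the sexes averaged (0.606% of genes called) the median was 0.25, and it became 1.35 without animal 958 and -1.67 without animal 960. The male-minus-female difference in the tamoxifen effect (0% called) was 5.28 in the median, with 10 unadjusted p under 0.05 and edgeR adjusted p of 0.564 for each gene. It was 1.13 without animal 960 and -0.92 without both high libraries.

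In hippocampus the tamoxifen effect had a median of -0.41 in females (0.013% of 15339 genes called), of 1.91 in males (0% called) and of 0.76 with the sexes averaged (0.0652% called). No gene of the 10 had an unadjusted p under 0.05 in these 3 comparisons, nor in the difference between the sexes (median 2.29, 0% called). DESeq2 gave no adjusted p for any of the 10 in hippocampus. The female median moved to -2.76 without animal 951 and to 3.08 without animal 958, so its sign depended on which high library was left out. The male median fell to 0.07 without animal 962, and the sexes-averaged median ran from -0.42 without animal 951 to 2.5 without animal 958. The median difference between the sexes was 4.68 without animal 951, 0.48 without animal 962 and -1.21 without animal 958.

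**Figure D4:**
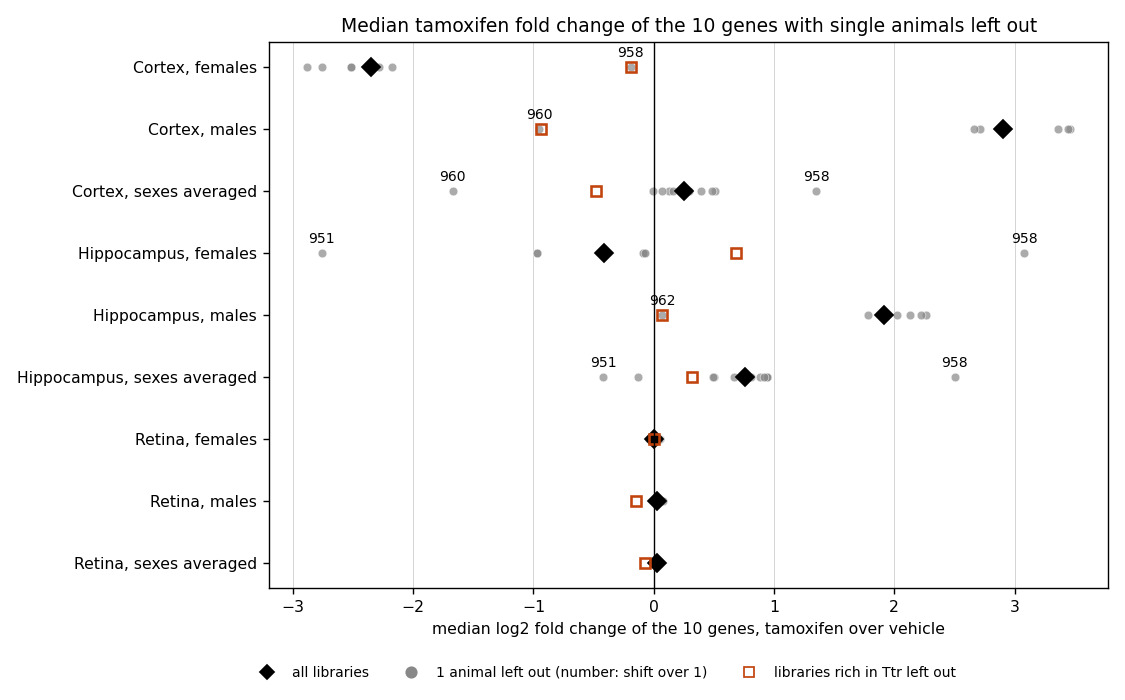
Median log2 fold change of the 10 genes for tamoxifen over vehicle in each tissue, with all libraries (diamonds), with 1 animal left out at a time (grey points, numbered where the median moved by more than 1) and with the libraries rich in Ttr left out (open squares). In retina the libraries left out as rich in Ttr are those of animals 960 and 961. In cortex the male median drops from 2.9 to -0.95 without animal 960, in hippocampus the female median spans -2.76 to 3.08, and in retina all values stay near 0.

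Between the sexes, all 10 genes were lower in male than in female hippocampus (median log2 fold change -2.18), where 17.7% of genes were called. None of the 10 passed, with edgeR adjusted p from 0.0805 to 0.149, and 9 had an unadjusted p under 0.05, as did 35.3% of all genes. Other lists held calls in the same comparison. Alas2, Hba-a1, Hba-a2 and Hbb-bs, all 4 red cell genes tested, were called higher in males (median log2 fold change 0.87), of which the 2 alpha globin genes are near-identical copies. All 9 ependymal genes tested were negative (median -0.32), and Hydin and Tekt1 were called lower. The part of these cells in the difference was not tested. Of the 3 high hippocampus libraries 2 were female and 1 was male. The median was -0.88 without animal 951 and -0.38 without animal 958, both female. Without the male library, that of animal 962, 9 of the 10 were called lower in males, among them Kcne2 at -4.32 ± 1.21 (SE, edgeR adjusted p = 0.0293). Without all 3 the median was -0.14 and only Enpp2 was called, at -0.17 ± 0.06 (SE, edgeR adjusted p = 0.0445). In cortex (0.0817% called) the median was 1.27, with 10 of 10 positive and 0 at an unadjusted p under 0.05, and it was -0.91 without animal 960.

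In retina the same genes behaved differently. Otx2 ranged only from 141.5 to 163.0 CPM over 15 libraries, with a median of 154.1 CPM and a coefficient of variation of 3.53%. Aqp1 ranged from 167.1 to 213.0 CPM (6.79%) and Kcne2 from 52.6 to 80.2 CPM (12.7%). Every retina library lay above every brain library for these 3 genes, including the high ones, as it did above every cortex library for 29.1% of all genes tested and above every hippocampus library for 31.8%. Slc4a5 (43.6 to 87.9 CPM) exceeded every cortex library, and its lowest retina value lay under the 46.3 CPM of hippocampus 958. Folr1 (12.7 to 29.0 CPM) overlapped the high brain libraries.

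None of the remaining 5 genes had every retina library above every library of a brain region. Ttr ranged from 20.8 to 60.5 CPM in 13 libraries, and reached 173.0 CPM in animal 960 and 130.0 CPM in animal 961, both males given tamoxifen. Enpp2 ranged from 75.1 to 180.2 CPM and was below every brain library. Kl, at 2.02 to 5.63 CPM, was below every hippocampus library. Of all genes tested, 25.9% were below every cortex library in this way and 24.4% below every hippocampus library. Clic6 (7.27 to 22.1 CPM) lay between the lower and the high brain libraries, and Sostdc1 (1.64 to 4.36 CPM) overlapped the lower libraries of both regions.

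Tissues were compared in a single edgeR fit over all 43 libraries, with the tissues deposited as separate tables. Against cortex, 88.2% of 15900 genes differed (44.4% higher, 43.9% lower), so the calls for the 10 are no more frequent than those for other genes. Of the 10, 5 were higher in retina: Otx2 (log2 fold change 6.54 ± 0.44, SE), Aqp1 (6.19 ± 0.62), Kcne2 (5.04 ± 0.65), Slc4a5 (4.46 ± 0.7) and Folr1 (2.91 ± 0.6). Enpp2 (-2.36 ± 0.31, SE), Kl (-2.15 ± 0.48) and Ttr (-2.05 ± 0.67) were lower. In what follows, the libraries rich in Ttr are the 5 high brain libraries and the retina libraries of animals 960 and 961. The lower call of Ttr was lost without animal 958 (-1.19, edgeR adjusted p = 0.071), without animal 960 (-0.89, edgeR adjusted p = 0.175), without all libraries rich in Ttr (-0.39, edgeR adjusted p = 0.191) and with the animal as a block (-0.93, edgeR adjusted p = 0.156).

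Against hippocampus, where 89.4% of genes differed (46% higher, 43.4% lower), the same 5 genes were higher in retina, from Otx2 (5.9 ± 0.38, SE) to Folr1 (1.77 ± 0.51). Kl (-4.11 ± 0.44, SE), Ttr (-2.66 ± 0.67), Enpp2 (-2.22 ± 0.31) and Sostdc1 (-1.29 ± 0.39) were lower. Left out of both counts was Clic6, at 0.66 ± 0.57 against cortex and -0.22 ± 0.52 against hippocampus (SE, edgeR adjusted p = 0.271 and 0.685). Sostdc1 did not pass against cortex (0.33 ± 0.45, SE, edgeR adjusted p = 0.487). With the animal as a block Clic6 was called higher than in cortex (1.12, edgeR adjusted p = 0.0403), and without the libraries rich in Ttr it was higher than in both (2.03 and 1.44), as was Sostdc1 than in cortex (1.42). Without those libraries the retinal excess of the strongest genes also grew, for Aqp1 to 7.84 ± 0.13 over cortex and 8.0 ± 0.12 over hippocampus (SE), and that of Folr1 to 4.63 and 3.65. The lower calls shrank but held, for Kl to -0.89 against cortex and -3.35 against hippocampus, and against hippocampus for Ttr to -0.79, for Enpp2 to -1.43 and for Sostdc1 to -0.46. The brain libraries left out held the highest levels of all 10 genes. These shifts, the gained calls and the smaller errors thus follow from that choice and are a description.

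Between hippocampus and cortex, 69.7% of genes differed (34.8% higher and 34.8% lower in hippocampus). Kl (1.96 ± 0.38, SE, edgeR adjusted p = 1.87e-05) and Sostdc1 (1.62 ± 0.41, SE, edgeR adjusted p = 0.000597) were higher in hippocampus, and the other 8 did not pass. None of the 10 had every hippocampus library above or below every cortex library, which held for 9.42% (above) and 11.9% (below) of all genes. Both calls held without the libraries rich in Ttr (2.46 and 1.88), where Folr1 (0.97), Clic6 (0.59) and Enpp2 (-0.59) passed as well. Errors were smaller there by the same choice of libraries. Without animal 960 alone 7 of the 10 were called, all higher in hippocampus, which includes 3 high libraries against the 1 then left in cortex.

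The promoters were compared because the 10 genes rise together in the high brain libraries yet sit at unlike levels in retina. RefSeq promoter sequences (GRCm38.p6) were at hand for 5 of the 10 genes, Kl, Aqp1, Slc4a5, Otx2 and Kcne2, in 9 entries that differ in transcription start. The 250 bases before each start were searched on both strands for TAATCC, the core motif bound by OTX and CRX homeodomain factors, and for TATAAA, the TATA box. Of all 32851 promoters, 6.25% held TAATCC and 12.4% held TATAAA. Shown are the 3 entries with a match and that of Kl, which was higher in hippocampus than in retina. Motif letters are in capitals. The entries are Otx2 at chr14:48667645-48667894 (minus strand, start A), Otx2 at chr14:48665110-48665359 (minus strand, start B), Slc4a5 at chr6:83237125-83237374 (plus strand) and Kl at chr5:150952357-150952606 (plus strand).
Otx2 start A: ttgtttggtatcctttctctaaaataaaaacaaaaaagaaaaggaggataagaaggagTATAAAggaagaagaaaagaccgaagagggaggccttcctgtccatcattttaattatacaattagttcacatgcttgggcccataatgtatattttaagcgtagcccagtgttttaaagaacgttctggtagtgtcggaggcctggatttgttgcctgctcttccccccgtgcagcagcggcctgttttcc
Otx2 start B: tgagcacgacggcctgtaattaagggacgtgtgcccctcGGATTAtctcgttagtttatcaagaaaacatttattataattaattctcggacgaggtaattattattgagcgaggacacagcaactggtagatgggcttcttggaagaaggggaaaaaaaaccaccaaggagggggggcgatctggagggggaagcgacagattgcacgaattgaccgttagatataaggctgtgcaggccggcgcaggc
Slc4a5: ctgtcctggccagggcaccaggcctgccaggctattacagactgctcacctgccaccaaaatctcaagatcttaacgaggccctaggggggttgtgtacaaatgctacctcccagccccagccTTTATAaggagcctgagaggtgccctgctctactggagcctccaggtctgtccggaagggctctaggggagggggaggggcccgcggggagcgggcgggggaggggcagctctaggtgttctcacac
Kl: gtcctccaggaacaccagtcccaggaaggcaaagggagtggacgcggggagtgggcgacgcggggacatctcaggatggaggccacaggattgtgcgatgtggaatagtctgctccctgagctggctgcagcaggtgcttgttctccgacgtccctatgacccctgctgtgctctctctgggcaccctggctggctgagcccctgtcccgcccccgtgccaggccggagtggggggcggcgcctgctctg

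Otx2 start B carried TAATCC on the reverse strand, read as GGATTA, beginning 211 bases before the start. Otx2 start A carried TATAAA 192 bases before its start. Slc4a5 carried it on the reverse strand, read as TTTATA, 127 bases before the start. No entry of Kl, Aqp1 or Kcne2 held either motif in this window. Such matches are a description of the letters and not of binding.

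In retina, Ttr was set against the other 9 genes and then against markers of the pigment epithelium. Enpp2 (r = 0.87, rho = 0.84, permutation adjusted p = 0.00027 for r) and Clic6 (r = 0.72, rho = 0.64, permutation adjusted p = 0.00411) rose with Ttr over the 15 libraries, and kept r = 0.65 and 0.46 without animals 960 and 961. The other 7 did not pass, with r from -0.37 for Kcne2 to 0.38 for Sostdc1, and with Aqp1 at -0.06 and Otx2 at 0.06. Among the genes most like Ttr in retina, a set added after its values were seen, were Rgr (r = 0.978), Rpe65 (0.964), Lrat (0.96), Slc16a8 (0.95), Pon1 (0.944), Trf (0.942), Inpp5k (0.925), Car12 (0.913) and Col8a1 (0.91). Rpe65 and Lrat are enzymes of the visual cycle and Rgr an opsin of the same cells. Of the 10 genes most like Ttr in retina, these 3 were on the pigment epithelium list. Another 3, Slc16a8, Car12 and Col8a1, were on the list of other choroid plexus genes. Rpe65 had 58.6 and 48.1 CPM in animals 960 and 961, against 4.24 to 16.3 CPM in the other libraries, the same 2 animals in which Ttr was highest.

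A list of 15 pigment epithelium genes varied from 621.7 to 1889 CPM in sum over the retina libraries. Folr1 (r = 0.88, rho = 0.8, permutation adjusted p = 0.0004 for r), Clic6 (r = 0.83, 0.73, 0.0012), Enpp2 (r = 0.78, 0.79, 0.00197) and Slc4a5 (r = 0.76, 0.74, 0.00322) followed it, over 10 tests. Without animals 960 and 966 these r were 0.85, 0.71, 0.68 and 0.73. Ttr had r = 0.48 (rho = 0.51, permutation adjusted p = 0.139), and Otx2 had r = -0.36 (permutation adjusted p = 0.278).

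The list was then split by function after its values were seen, so the r that follow carry no test. The 7 visual-cycle genes include Rgr, Rpe65 and Lrat, the 3 genes found to be most like Ttr, so that their sum follows Ttr by that choice. The summed level had r = 0.86 with Ttr, 0.86 with Enpp2, 0.68 with Clic6 and 0.36 with Folr1. Without the more abundant Rlbp1, as used from here on, it had r = 0.98 with Ttr, 0.89 with Enpp2, 0.73 with Clic6 and 0.33 with Folr1. The 5 pigment genes Tyr, Tyrp1, Dct, Pmel and Slc45a2, which melanocytes of the neighbouring choroid also express, had r = 0.29 with Ttr, 0.62 with Enpp2, 0.75 with Clic6, 0.78 with Slc4a5 and 0.84 with Folr1. Female vehicle animal 958 shows the contrast, with 742.8 CPM of pigment genes but 61.9 CPM of visual-cycle genes, 20.0 CPM of Folr1 and the lowest Ttr (20.8 CPM). Male tamoxifen animal 961 had 214.7 and 278.4 CPM of these sets, 20.7 CPM of Folr1 and 130.0 CPM of Ttr. Otx2 (r = -0.31 and 0.07) and Kcne2 (-0.23 and -0.31) followed neither set.

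**Figure D5:**
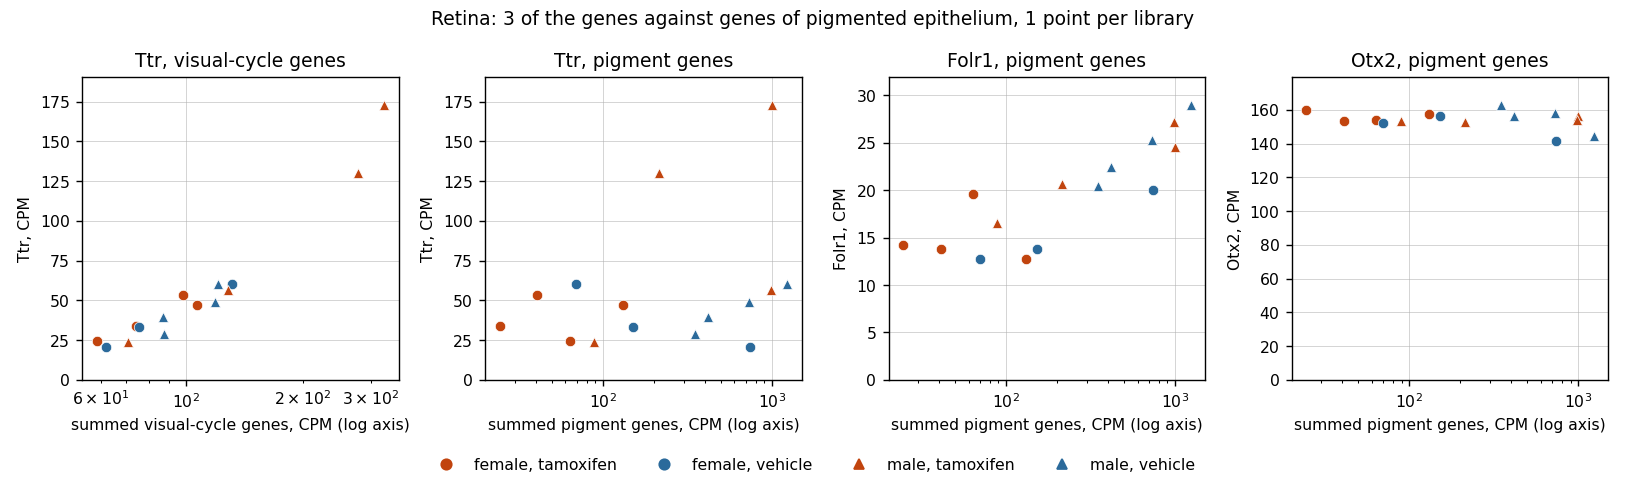
Ttr, Folr1 and Otx2 in CPM in the 15 retina libraries against the summed CPM of visual-cycle genes (Rlbp1 left out) or pigment genes (log axes), with colour for treatment and symbol for sex. Ttr rises with the visual-cycle genes to 173.0 CPM, Folr1 rises with the pigment genes to 29.0 CPM, and Otx2 stays between 141.5 and 163.0 CPM.

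Tamoxifen gave medians near 0 in retina: 0 in females (0.0406% of 14781 genes called), 0.03 in males (0% called) and 0.03 with the sexes averaged (0.0474% called). In males Ttr had the largest change of the 10, from 44.3 ± 13.5 CPM (SD, n = 4) with vehicle to 95.9 ± 68.0 CPM (SD, n = 4) with tamoxifen. The groups overlapped, and the log2 fold change of 1.11 ± 0.44 (SE) did not pass (edgeR adjusted p = 1). The 2 high values were those of animals 960 and 961, in which Rpe65 was high as well, and the part of pigment epithelium in that difference was not tested. In females Aqp1 was at -0.19 ± 0.06 (SE, edgeR adjusted p = 0.601). At an unadjusted p under 0.05 there was 1 gene in each sex and 0 with the sexes averaged, and DESeq2 called 0 in each. The difference in the tamoxifen effect between the sexes (0% called) had a median of -0.06, with Aqp1 at 0.26 ± 0.09 (SE, edgeR adjusted p = 0.999).

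Between the sexes in retina, Folr1, Slc4a5 and Clic6 had higher values in males but did not pass in edgeR (0.149% of genes called). Folr1 was at 15.1 ± 3.07 and 15.5 ± 3.96 CPM (SD) in females given tamoxifen (n = 4) and vehicle (n = 3), and at 22.2 ± 4.67 and 24.3 ± 3.72 CPM (SD, n = 4 each) in males. The lowest male value was 16.5 CPM and the highest female value 20.0 CPM, so the sexes overlapped. Its log2 fold change was 0.58 ± 0.13 (SE, edgeR adjusted p = 0.0847), that of Slc4a5 0.45 ± 0.11 (0.104) and that of Clic6 0.68 ± 0.17 (0.144). DESeq2 called these 3, and edgeR called them and Enpp2 without animal 959. It called Folr1 alone without animal 951 (edgeR adjusted p = 0.0441) and without animal 958 (edgeR adjusted p = 0.0344). Otx2 (0 ± 0.04, SE) and Aqp1 (-0.03 ± 0.04, SE) showed no such difference.

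In the same comparison 14 of the 15 pigment epithelium genes had a positive log2 fold change (median 0.98), 10 had an unadjusted p under 0.05 and 0 were called by edgeR. Over all genes tested, 50.4% were positive and 13.1% had an unadjusted p under 0.05. Of the meningeal fibroblast genes, 9 of 9 tested were positive (median 0.9), 4 had an unadjusted p under 0.05 and Ogn was called higher in males. The sum of the pigment epithelium list was 621.7 to 717.0 CPM and 694.2 to 1355 CPM in females given tamoxifen and vehicle, and 674.7 to 1876 CPM and 938.4 to 1889 CPM in males. None of the 15 was at 0 in every library. The sum of the fibroblast list was 49.7 to 73.4 CPM and 63.1 to 155.0 CPM in females, and 53.4 to 240.5 CPM and 75.9 to 202.4 CPM in males, in the same order of treatments. The part of these cells in the sex difference of Folr1, Slc4a5 and Clic6 was not tested.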

How the data were processed

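The authors deposited 1 table per tissue of expected counts per gene (estimated counts, marked raw in the column names and not scaled), built on RefSeq gene models per the file headers. GRCm38, mm10 and DESeq are named in the submitters' processing notes, and the labels' protocols name AllPrep extraction and TruSeq libraries. Aligner, counter and strandedness were not given in the sources used here, so overlapping or antisense genes may share reads.

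Counts were rounded to whole numbers. A near-empty cortex library of male tamoxifen animal 962 (4567 counts) was left out, and hippocampus 965 was not analysed here. No pair of replicates agreed within sampling noise (chi-square per gene at least 3.0). Genes were kept by filterByExpr (minimum count 10, total 15), scaled by TMM and tested by edgeR 4.0.16 (R 4.3.3) quasi-likelihood fits with 4 group means per tissue, and in 1 joint fit for tissues, with Benjamini-Hochberg adjustment over all genes tested and a threshold of 0.05. Standard errors were taken from each log2 fold change and its F statistic. The test was checked on simulated counts for tamoxifen in cortex with the sexes averaged. Those counts held no outlying library, so the check does not cover that setting. The alternatives were DESeq2 1.42.0, other scaling, no filter, vehicle only, each animal left out, the animal as a block and, added after seeing the data, the libraries rich in Ttr left out. The libraries rich in Ttr were the 5 high brain libraries and the retina libraries of animals 960 and 961. In retina the widest gap in Ttr was 2.15-fold and marked no separate cluster. Correlations used 100000 permutations, whose smallest p is 1e-05 before adjustment.

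The animal numbers pair libraries because tissues come from the same animal. Deviations from group means correlated weakly within animals, with a median r of 0.06 between cortex and hippocampus, 0.04 between cortex and retina and -0.04 between hippocampus and retina.

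Per tissue, all 10 genes are named in each comparison, with at most the 4 most abundant genes of other lists and the 10 genes most like Ttr, clone names and predicted genes left out and 1 of those in retina not reported here. The 10 genes and the lists were chosen with earlier results of these data known.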

Additional observations from a re-analysis of the deposited data

Results flagged for a closer look

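Within groups of 4 libraries, a library was singled out where its gap to the next took up more than Dixon's 95% critical share of the group's range. This held in 21 of 70 groups tested, where chance flags about 1 in 20, and the 10 genes are not independent. Groups of 3, which hold both high cortex libraries and hippocampus 958, were not tested.

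In hippocampus of females given tamoxifen, animal 951 stood apart for all 10 genes, with Ttr at 1900 CPM, Enpp2 at 1679 CPM, Kl at 207.7 CPM, Clic6 at 86.5 CPM, Slc4a5 at 42.1 CPM, Aqp1 at 35.5 CPM, Folr1 at 33.1 CPM, Sostdc1 at 25.9 CPM, Kcne2 at 22.7 CPM and Otx2 at 12.8 CPM. In hippocampus of males given tamoxifen, animal 962 stood apart for 9 of the 10, with Ttr at 1023 CPM, Enpp2 at 886.2 CPM, Kl at 101.8 CPM, Clic6 at 32.8 CPM, Slc4a5 at 18.4 CPM, Aqp1 at 15.8 CPM, Folr1 at 14.8 CPM, Sostdc1 at 13.4 CPM and Kcne2 at 10.3 CPM, Otx2 being the exception. In retina the low Kcne2 of male vehicle animal 966 (59.6 CPM) and the high Enpp2 of female tamoxifen animal 952 (103.2 CPM) stood apart from the other 3 libraries of their groups.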

How the results depend on the processing

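Member calls moved in few settings. With 1 animal left out at a time, the number of the 10 genes called ran from 0 to 1 for tamoxifen in female cortex, from 0 to 9 between the sexes in hippocampus (9 without animal 962), from 0 to 4 between the sexes in retina (4 without animal 959) and from 2 to 7 between hippocampus and cortex (7 without animal 960). In retina against cortex, Ttr lost and Clic6 gained its call without animal 958, and likewise without animal 960. Sostdc1 was also called higher in retina without animal 960. DESeq2 called 3 between the sexes in retina, 4 of 6 with an adjusted p for retina against cortex, 5 of 6 for retina against hippocampus and 1 of 6 for hippocampus against cortex. No filter gave 1 between the sexes in retina. Without the libraries rich in Ttr, 1 was called between the sexes in hippocampus and 5 between hippocampus and cortex. The animal as a block gave 8, 9 and 2 calls for retina against cortex, retina against hippocampus and hippocampus against cortex, the counts of the fit without it. Under this pairing Ttr lost and Clic6 gained its call in retina against cortex, and no other call changed. No paired analysis was possible within tissues because each animal received a single treatment. The median r with Ttr in cortex, 0.93, was 0.996 for linear CPM and 0.68 without the 2 libraries farthest from the median Ttr. In hippocampus it was 0.74 within the lower cluster and 0.97 over all 14 libraries. Why these values moved was not tested beyond the libraries named. Depth limits the 7 scarce genes in cortex, whose lowest libraries held 0 to 13 counts.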
